A study of Mus musculus with 12 samples.

Results

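The genes described here are the Wnt ligands, their frizzled and Lrp receptors, and secreted proteins of the inhibitor families. Cytoplasmic and nuclear proteins that relay the signal are included. All were read in ribosome-bound mRNA of hippocampal CA1 pyramidal cells from wild-type and Fmr1 knockout mice. They were chosen by gene name, with a minimum of 15 reads over the 12 libraries and with earlier results of these data known. The names were those of Wnt, Fzd, Sfrp and Dkk genes, Lrp5 and Lrp6, Axin1 and Axin2, Dvl1 to Dvl3, the Tcf7 genes, Apc, Ctnnb1, Lef1 and Wif1. Of 52 genes with such a name, 49 passed the minimum, among 17823 genes tested and 24079 genes in the count table. The 49 comprised 17 ligands, 12 receptors, 9 secreted inhibitors (a label given by gene family), 7 cytoplasmic genes and 4 transcription factors. Wnt1 and Dkk4 had 0 reads in every library, and Wnt8a had 11 reads, 7 of them in 1 wild-type library and 4 in 1 Fmr1 KO library, which put it just under the minimum. Dkk1 with 83 reads in total, Wif1 with 142, Sfrp2 with 153 and Wnt16 with 170 were the members closest above it.

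Both groups carried the Wfs1-CreERT2 transgene, a bacterial artificial chromosome in which the Wfs1 promoter drives a tamoxifen-inducible Cre, and the RiboTag allele, which adds a hemagglutinin (HA) tag to the ribosomal protein Rpl22 wherever Cre has acted. The control group (Wfs1-CreERT2:RiboTag, 6 libraries) and the Fmr1-/y group (Wfs1-CreERT2:RiboTag with the Fmr1 knockout, 6 libraries) were C57BL/6J males of 2 to 6 months. All received tamoxifen at 100 mg/kg on 3 days, and hippocampi were taken 1 week later. HA-tagged ribosomes were pulled down from the whole hippocampus, each library was made from a pool of 4 to 6 mice, and p-values therefore measure the spread between pools. Depth ran from 39400980 to 55745464 reads in the wild type and from 43106629 to 65565479 in the knockout. Wild-type libraries held 1971 to 2608 Fmr1 reads, against 0 reads in 5 knockout libraries and 1 read in knockout replicate 2, which matches the labels.

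The labelled cell type was checked with marker lists, whose levels are given in CPM (read counts scaled to a common library size after TMM normalization) and summed over each list. The 8 markers of CA1 pyramidal cells, among them Wfs1, Fibcd1 and Camk2a, were all present and summed to 8454 to 10497 CPM in the wild type and 8182 to 9726 CPM in the knockout. All 8 had a lower mean in the knockout, with a median log2 fold change of -0.10, and 2 had an unadjusted p under 0.05, Wfs1 (-0.27, p 0.00827) and Mpped1 (-0.16, p 0.0454). Other cell types were not absent. The list for choroid plexus and ependyma, led by the transthyretin gene Ttr, summed to 6427 to 11916 CPM in the wild type and 8384 to 17583 CPM in the knockout, with none of its 6 genes at 0. Within that list 5 of 6 genes had a higher mean in the knockout, and the unadjusted edgeR p was 0.0165 for Ttr and 0.00206 for Folr1. Kl and Clic6 differed by 0.33 and 0.35 in log2 fold change, Foxj1 by 0.11 and Ccdc153 by -0.01, none at an unadjusted p under 0.05. Knockout replicates 1 and 4 held the 2 highest sums, 17583 and 13855 CPM. The astrocyte list spanned 735 to 891 CPM in the wild type and 804 to 1246 CPM in the knockout, the endothelial list 42.9 to 59.98 and 49.7 to 75.9 CPM, and the list for pericytes and fibroblasts 162 to 218 and 168 to 302 CPM. The mean was higher in the knockout for all 6 astrocyte genes, 2 of them at an unadjusted p under 0.05, for all 6 endothelial genes, 4 at that level, and for 5 of 6 pericyte and fibroblast genes, 2 at that level. Of all genes tested, 51.4% had a log2 fold change above 0 and 7.96% an unadjusted p under 0.05, both in edgeR. Not every list was higher. The oligodendrocyte list spanned 1054 to 1557 CPM in the wild type and 952 to 1432 CPM in the knockout. It had a higher knockout mean in 1 of 6 genes, as had the dentate granule list. Higher genes numbered 3 of 8 for GABAergic cells and 2 of 6 for Cajal-Retzius cells. For microglia they numbered 4 of 6, and for CA2 and CA3 cells 3 of 5 each. The part of these shifts in the results for Wnt pathway genes was not tested. Reads from more cells of a type and from more RNA per cell cannot be told apart in such pooled tissue.

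Wnt proteins are secreted, lipid-modified ligands that bind a frizzled receptor together with the co-receptor Lrp5 or Lrp6. In the canonical branch this inactivates a destruction complex built on Axin and Apc, so that beta-catenin, the product of Ctnnb1, accumulates and acts in the nucleus with a TCF or LEF transcription factor. In the hippocampus the pathway is known for patterning the embryonic field, for neurogenesis in the dentate gyrus, and for the assembly and plasticity of synapses.

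edgeR's quasi-likelihood test, which called 0.0224% of all genes at an adjusted p under 0.05, called 0 of these 49 genes. DESeq2 gave an adjusted p to 42 of the 49 and called 2 of these, lower Wnt3a and higher Sfrp5, where it called 0.571% of the 14713 genes with an adjusted p. The 7 members without one had few reads. At an unadjusted p under 0.05, edgeR singled out 6 members, or 12.2%, against 7.96% of all genes, and DESeq2 singled out the same 6, against 8.46% of all genes. Wnt3a, Wnt8b, Wnt2 and Wnt7a were lower in Fmr1 KO mice, which is 8.16% of the members against 3.67% of all genes. Wnt6 and Sfrp5 were higher, which is 4.08% of the members against 4.29% of all genes. Of the 6, 5 were among the 17 ligands (29.4%) and 1 among the 9 secreted inhibitors (11.1%). None was among the 12 receptors, 7 cytoplasmic genes or 4 transcription factors. At the 7.96% of all genes, groups this small would hold few such genes or none. In no member did all 6 libraries of either genotype lie beyond all 6 of the other. Among all genes, the knockout libraries lay wholly below the wild type in 0.41% and wholly above it in 0.213%. The median log2 fold change of the members was 0.01 and their median size 0.11, next to 0.004 and 0.10 over all genes tested. The fold change was above 0 in 28 of the 49 members (57.1%) and in 51.4% of all genes, the share to set beside the counts by role below.

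The 250 bases upstream of the annotated start are shown for the 3 members with the largest fold changes in size among those with an outermost start in the reference table and an unadjusted p under 0.05 (Wnt3a and Wnt8b, lower in the knockout, and Sfrp5, higher), so that their promoters can be read side by side. The sequences are from RefSeq, build GRCm38.p6, on the gene's own strand. Capitals mark GC boxes (GGGCGG on either strand, so also CCGCCC, the motif of Sp-family factors, with overlapping copies counted) and the letters CTTTGA or CTTTGT on either strand, which TCF and LEF factors recognise.
Wnt3a, chr11:59290752-59291001, minus strand: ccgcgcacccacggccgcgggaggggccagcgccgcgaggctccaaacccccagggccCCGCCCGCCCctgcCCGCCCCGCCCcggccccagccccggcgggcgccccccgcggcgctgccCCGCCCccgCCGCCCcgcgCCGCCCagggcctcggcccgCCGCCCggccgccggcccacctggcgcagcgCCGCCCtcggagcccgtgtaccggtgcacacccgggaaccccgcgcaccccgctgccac
Wnt8b, chr19:44493222-44493471, plus strand: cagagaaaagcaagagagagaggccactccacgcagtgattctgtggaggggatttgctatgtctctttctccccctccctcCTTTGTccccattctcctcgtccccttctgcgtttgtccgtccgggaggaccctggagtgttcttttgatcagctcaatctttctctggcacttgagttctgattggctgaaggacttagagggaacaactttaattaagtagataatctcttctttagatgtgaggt
Sfrp5, chr19:42202253-42202502, minus strand: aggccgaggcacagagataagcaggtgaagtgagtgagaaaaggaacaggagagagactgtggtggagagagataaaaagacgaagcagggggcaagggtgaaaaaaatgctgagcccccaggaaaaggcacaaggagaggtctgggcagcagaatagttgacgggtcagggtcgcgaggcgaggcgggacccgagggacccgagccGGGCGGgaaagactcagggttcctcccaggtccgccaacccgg
The Wnt3a window was 87.6% G and C and held 9 GC boxes and no TCF/LEF letters. The Wnt8b window was 48.4% G and C, with 1 CTTTGT and no GC box, and that of Sfrp5 was 59.6% G and C with 1 GC box. Windows of this kind were found for 35 of the 49 genes, 44 windows in all because some genes have several starts. A GC box was present in 33 of the 44 (75%) and in 32.7% of 32851 windows of all genes, the TATA box letters TATAAA in 9 (20.5%) and 12.4%, and either TCF/LEF form in 10 (22.7%) and 27.6%. Such letter matches describe the windows and are not evidence of binding.

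The pathway was present at very different levels from gene to gene. Per kilobase of transcript, on the CPM scale and averaged over the 12 libraries, Dkk3 had the highest level of the 49 genes at 207, followed by Ctnnb1 at 117. Dkk3 encodes a divergent dickkopf protein abundant in hippocampal neurons. The leading ligands were Wnt4 at 7.33 CPM per kilobase, Wnt2 at 6.31, Wnt7b at 6.24, Wnt7a at 5.75 and Wnt9a at 4.43, and the next, Wnt5a, stood at 1.54. Among receptors, Lrp6 at 7.84 and Fzd3 at 7.47 CPM per kilobase stood above Fzd6 at 2.72. Lrp6 is the co-receptor of the canonical branch, and Fzd3 is a frizzled receptor best known for axon guidance and planar polarity. The transcription factors were low, with Tcf7l1 at 1.21, Tcf7l2 at 0.993 and Lef1 at 0.991 CPM per kilobase. In CPM without regard to length, 20 members averaged over 10 CPM in both genotypes, and 12 averaged under 1 CPM in both, of which 7 were ligands and 5 secreted inhibitors. The coefficient of variation among wild-type libraries had a median of 14.98% in the first group and 41.8% in the second, so that equal fold changes were measured far less precisely in the second.

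**Figure D1:**
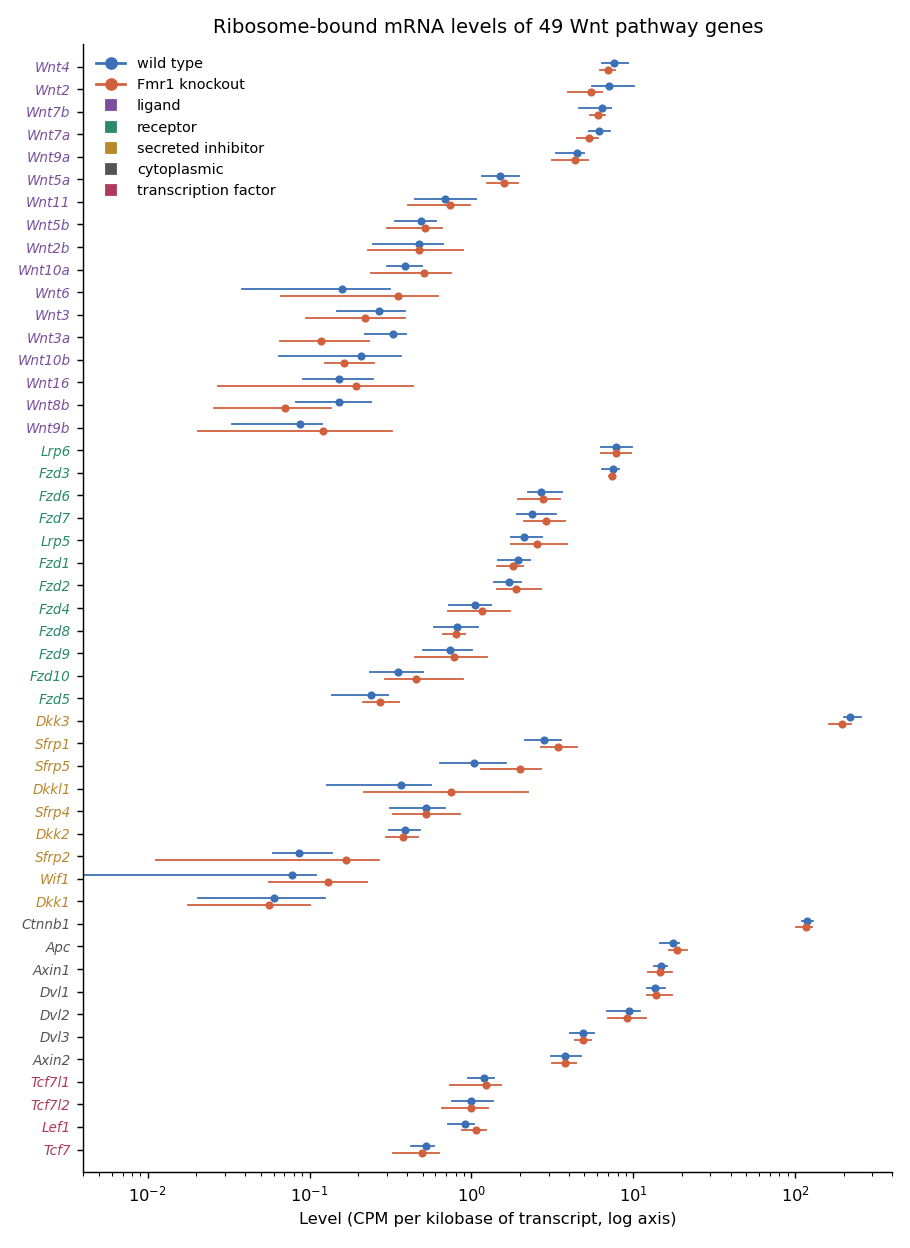
Levels of the 49 genes in CPM per kilobase of transcript on a log axis, with points for the mean and lines from the lowest to the highest of 6 libraries per genotype (blue, wild type; orange, Fmr1 KO) and gene names coloured by role. Dkk3 and Ctnnb1 stand highest at 207 and 117, and the wild-type line of Wif1 runs to the axis edge because 1 wild-type library had 0 reads.

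Among the ligands, 8 of 17 had a higher and 9 a lower mean in Fmr1 KO mice, with a median log2 fold change of -0.03 and a median size of 0.28. Wnt3a, a ligand of the canonical branch that is required for the hippocampus to form, had the most negative fold change of the 49 genes. Its reads numbered 56, 32, 50, 44, 24 and 39 in wild-type replicates 1 to 6, and 25, 12, 8, 10, 14 and 30 in the knockout. In CPM, the wild type ran from 0.608 through a median of 0.982 to 1.08, and the knockout from 0.180 through a median of 0.226 to 0.646. Only wild-type replicate 5 at 0.608 and knockout replicate 6 at 0.646 crossed, and all other knockout libraries lay below all wild-type ones.

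The mean Wnt3a level was 0.911 ± 0.184 CPM in the wild type and 0.325 ± 0.188 CPM in the knockout (SD, n = 6 each), or 35.7% of the wild-type mean. The log2 fold change was -1.49 with a standard error of 0.36 and a 95% interval of -2.25 to -0.72. edgeR gave an unadjusted p of 0.000706 and an adjusted p of 0.225, and DESeq2 an adjusted p of 0.0133, so the call depends on the tool. DESeq2's shrinkage prior brought the fold change to -0.36 at an adjusted p of 0.0181. The gene lies on chromosome 11 (59248036 to 59290751, GRCm38), with the promoter printed above. Leaving out each library in turn gave log2 fold changes of -1.79 to -1.37. The unadjusted edgeR p was under 0.05 in all 12 of these fits and the adjusted p 0.155 to 0.440. Without knockout replicates 1 and 4 the fold change was -1.52. Wnt3a marks the cortical hem and is not a CA1 marker. The list for Cajal-Retzius cells, which the hem gives rise to, summed to 92.3 to 126 CPM in the wild type and 88.2 to 138 CPM in the knockout, with none of its 6 genes at an unadjusted p under 0.05. Reln, at means of 63.0 and 68.0 CPM, was the largest part of that sum, followed by Trp73 and Ndnf. Lhx1 averaged 0.467 CPM in the wild type and 0.488 CPM in the knockout, and Lhx5 0.887 and 0.767 CPM, so both hardly count in it. The sum therefore cannot show whether Cajal-Retzius cells differed between genotypes. The part of these cells in the Wnt3a difference was not tested.

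Wnt8b, which like Wnt3a is expressed in the embryonic hem and hippocampal field, spanned 0.279 to 0.811 CPM in the wild type with a median of 0.440, and 0.0861 to 0.456 CPM in the knockout with a median of 0.208. Knockout replicates 3, 4, 5 and 6 lay below every wild-type library, while replicates 1 and 2 lay inside the wild-type range. The knockout mean was 46.0% of the wild-type mean, with a log2 fold change of -1.10 (95% interval -2.10 to -0.11), an unadjusted p of 0.0313 and an edgeR adjusted p of 0.565. With 4 to 32 reads per library it was thinly counted, and its unadjusted p rose above 0.05 in 5 of 12 fits with a single library removed, reaching at most 0.0844. DESeq2's prior reduced its fold change to -0.18.

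Wnt2, known for a role in dendrite growth, was far more abundant, at 12.5 to 22.9 CPM in the wild type (median 15.2) and 8.92 to 14.4 CPM in the knockout (median 13.2). The ranges overlapped, with wild-type replicate 1 standing well above all other libraries and knockout replicate 4 lowest. Means were 16.0 ± 3.59 and 12.4 ± 2.19 CPM (SD, n = 6 each), the log2 fold change was -0.37 with a standard error of 0.14, and edgeR's adjusted p was 0.504 (unadjusted 0.0204). Without wild-type replicate 1 the fold change was -0.23 with an unadjusted edgeR p of 0.0742. Without knockout replicates 1 and 4 it was -0.22 with an unadjusted edgeR p of 0.127. Knockout replicates 4 and 1, at 8.92 and 10.8 CPM, lay below all other libraries. Leaving out the highest wild-type or the lowest knockout libraries shrinks the fold change by construction.

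Wnt7a, a ligand that promotes presynaptic assembly and, with Wnt7b, supports the brain's blood vessels, spanned 17.0 to 23.0 CPM in the wild type (median 18.9) and 14.3 to 19.3 CPM in the knockout (median 17.2). Wild-type replicates 2, 4 and 6 lay above every knockout library, knockout replicates 4 and 5 lay below every wild-type one, and the others overlapped. The log2 fold change was -0.21 with a standard error of 0.10 and an unadjusted p of 0.0466, which rose above 0.05 in 8 of 12 fits that left out 1 library. Its edgeR adjusted p was 0.621. For its close relative Wnt7b the means were 26.8 and 25.3 CPM, with a log2 fold change of -0.08.

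Wnt6 went the other way. Its wild-type libraries spanned 0.0792 to 0.650 CPM (median 0.313) and its knockout libraries 0.139 to 1.29 CPM (median 0.690), with 4 to 72 reads. Knockout replicates 3, 4 and 5 lay above every wild-type library and the other 3 inside the wild-type range. The knockout mean was 223% of the wild-type mean, the log2 fold change 1.16 with a standard error of 0.51, and edgeR's adjusted p 0.575 (unadjusted 0.0344). The unadjusted edgeR p rose above 0.05 in 6 of 12 fits with 1 library left out, and also without knockout replicates 1 and 4 (log2 fold change 0.94, p 0.126). Knockout replicate 4, at 1.29 CPM, was its highest library.

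**Figure D2:**
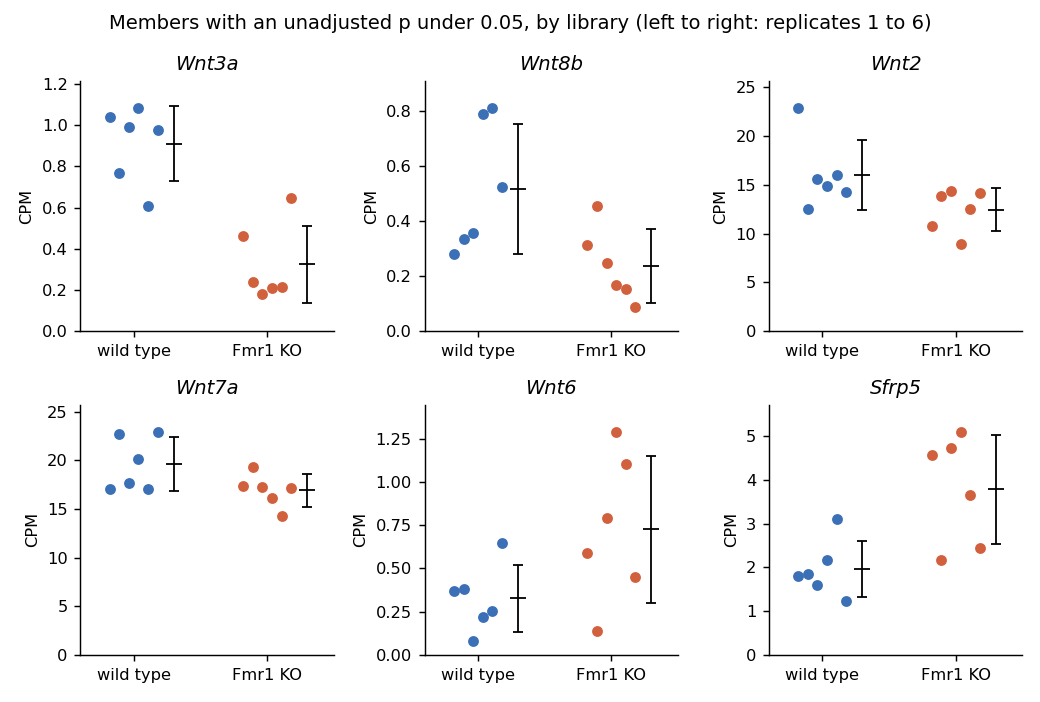
CPM of the 6 members with an unadjusted p under 0.05 in each library, with replicates 1 to 6 from left to right in each genotype and bars for mean and SD. Wnt3a crosses between genotypes in 1 library each, at 0.608 and 0.646 CPM, and the other 5 genes overlap more widely.

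The remaining ligands did not reach an unadjusted p of 0.05. Wnt4, the most abundant ligand per kilobase and one studied at synapses, averaged 32.0 ± 3.96 CPM in the wild type and 29.5 ± 2.15 CPM in the knockout (SD, n = 6 each), with a log2 fold change of -0.12 and a 95% interval of -0.30 to 0.06. Wnt9a averaged 14.8 and 14.6 CPM (interval -0.30 to 0.24), and Wnt5a, which signals mostly outside the beta-catenin branch, 10.5 and 11.1 CPM (interval -0.21 to 0.39). Wnt11, a further ligand of the non-canonical branches, averaged 2.50 and 2.68 CPM. For ligands under 1 CPM the intervals were wide, such as -1.20 to 0.51 for Wnt10b, -0.82 to 1.51 for Wnt16 and -0.68 to 1.58 for Wnt9b.

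Some Wnt genes sit in the genome as neighbouring pairs, which offers a comparison within a locus. Wnt3a and Wnt9a lie 16097 bases apart on chromosome 11, and while Wnt3a differed by -1.49, Wnt9a differed by -0.03 in log2 fold change. On the same chromosome the annotated spans of Wnt3 and Wnt9b meet, and their fold changes were -0.28 and 0.45, with intervals that included 0 in both. The value of Wnt9b turned to -0.13 without knockout replicate 4, which had 70 reads against 5 to 28 in the other knockout libraries. Wnt6 and Wnt10a, 6696 bases apart on chromosome 1, had fold changes of 1.16 and 0.38, and Wnt10a, at 0.964 CPM in the wild type and 1.25 CPM in the knockout, had an unadjusted p of 0.196. The difference between neighbours was not itself tested. Wnt10b, 11650 bases from Wnt1 (0 reads), averaged 0.464 and 0.366 CPM.

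**Figure D3:**
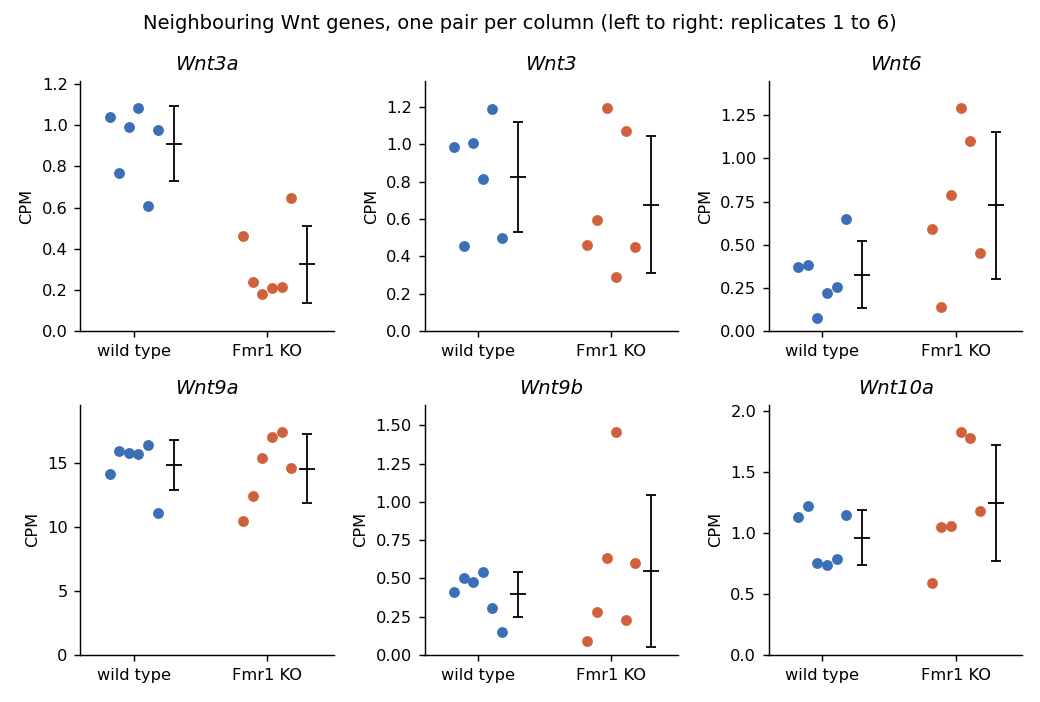
CPM in each library of 3 pairs of neighbouring Wnt genes, 1 pair per column, with bars for mean and SD. The knockout libraries of Wnt3a lie low while those of Wnt9a spread over 10.5 to 17.5 CPM, around the wild-type values.

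No receptor reached an unadjusted p of 0.05. Of 12, 8 had a higher and 4 a lower mean in the knockout, the median log2 fold change was 0.11, and the range was -0.09 to 0.37. Fzd3 averaged 95.8 ± 7.63 CPM in the wild type and 94.6 ± 3.16 CPM in the knockout, with a 95% interval of -0.15 to 0.11 for its log2 fold change. Lrp6 averaged 73.9 ± 12.4 and 73.0 ± 11.5 CPM (SD, n = 6 for each mean), with an interval of -0.26 to 0.22.

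Lrp5, the second co-receptor, spanned 9.07 to 14.2 CPM in the wild type and 9.07 to 20.1 CPM in the knockout. Its 2 highest libraries were knockout replicates 1 and 4, the same 2 that led the choroid plexus list, and the other 4 knockout libraries lay within the wild-type range. Its log2 fold change was 0.27 with all libraries and 0.001 without these 2. Fzd7, a frizzled receptor of progenitor cells, went from a mean of 10.7 to 13.2 CPM with a log2 fold change of 0.30, which was 0.06 without them. These 2 libraries were also the highest for Fzd7. Leaving out the 2 highest libraries of a gene, where both are knockout ones, lowers its fold change by construction.

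Knockout replicates 1 and 4 were the 2 highest of all 12 libraries in 6 members, namely Fzd2, Fzd4, Fzd7, Lrp5, Sfrp1 and Tcf7l1, a group noticed after the values were seen. This held for 3.71% of all genes, and for the lists of choroid plexus and of pericytes and fibroblasts. Fzd2 and Fzd4 had log2 fold changes of 0.14 and 0.15 with all libraries and of -0.06 and -0.21 without these 2. Since the group was picked for these 2 libraries being the highest, a fall was fixed in advance. The part of other cell types in these differences was not tested.

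Among the 9 secreted inhibitors, 6 had a higher and 3 a lower mean in the knockout, with a median log2 fold change of 0.28. Sfrp5 belongs to the secreted frizzled-related proteins, which carry a frizzled-like domain and bind Wnt ligands outside the cell. It spanned 1.22 to 3.12 CPM in the wild type (median 1.82) and 2.18 to 5.11 CPM in the knockout (median 4.11). Knockout replicates 1, 3, 4 and 5 lay above every wild-type library, and replicates 2 and 6 lay within the wild-type range.

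The mean of Sfrp5 was 1.96 ± 0.646 CPM in the wild type and 3.78 ± 1.24 CPM in the knockout (SD, n = 6 each), or 193%. The log2 fold change was 0.95 with a standard error of 0.24 and a 95% interval of 0.43 to 1.47, and the unadjusted p was 0.00117. edgeR's adjusted p was 0.267 and DESeq2's 0.0348. DESeq2's prior brought the fold change to 0.38. With each library left out it stayed between 0.85 and 1.13. The unadjusted edgeR p was under 0.05 in all 12 of these fits and the adjusted p 0.172 to 0.550. Without knockout replicates 1 and 4 the fold change was 0.73 (unadjusted edgeR p 0.0131). Both of these libraries lay above the knockout mean, so a fall was fixed in advance. Set against the choroid plexus list, knockout replicates 1 and 4 had the highest marker sums, 17583 and 13855 CPM, with Sfrp5 at 4.58 and 5.11 CPM, and knockout replicate 2 was the lowest of its genotype in both, at 8384 and 2.18 CPM. Knockout replicate 3 had a sum of 10272 CPM with Sfrp5 at 4.74 CPM, and wild-type replicates 3 and 4 had sums of 11916 and 11248 CPM with Sfrp5 at 1.603 and 2.168 CPM. The part of choroid plexus RNA in the difference was not tested.

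Sfrp1, the most abundant of its family here, spanned 9.44 to 15.7 CPM in the wild type and 11.7 to 19.6 CPM in the knockout. Its 2 highest libraries were again knockout replicates 1 and 4. Its log2 fold change of 0.28 (unadjusted edgeR p 0.0933) became 0.07 without them, a fall whose direction was likewise fixed in advance. Sfrp2 had means of 0.173 and 0.337 CPM and Sfrp4 of 0.925 and 0.930 CPM, and the interval for Sfrp2 ran from -0.23 to 2.16.

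**Figure D4:**
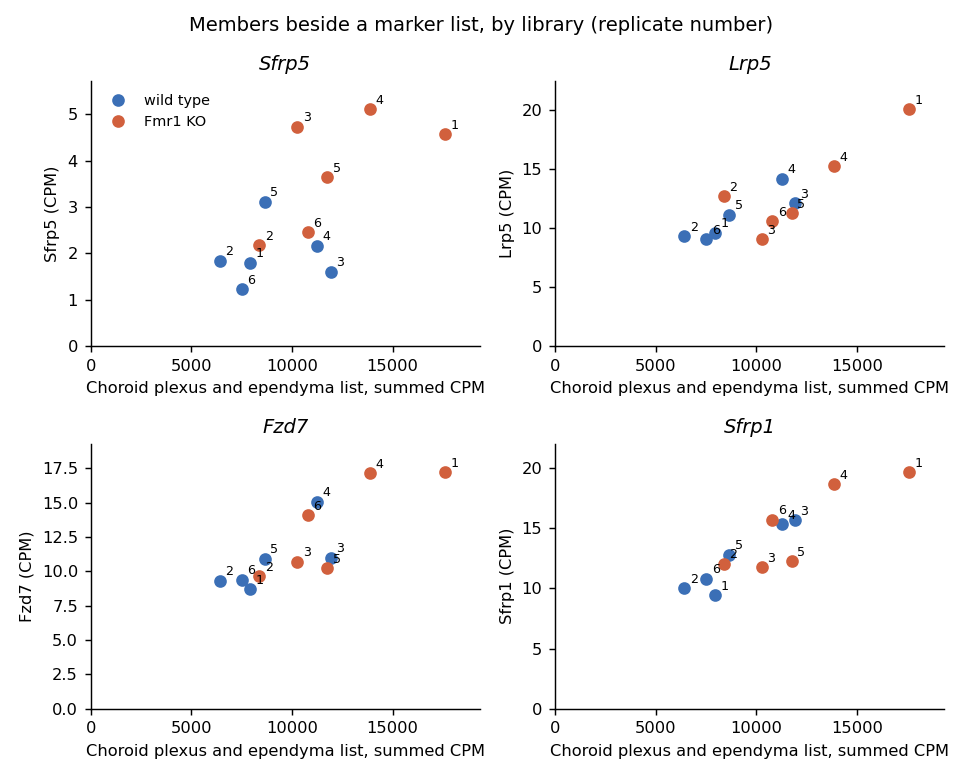
CPM of Sfrp5, Lrp5, Fzd7 and Sfrp1 in each library (vertical) against the summed CPM of the choroid plexus and ependyma markers (horizontal), with the replicate number beside each point. Knockout replicates 1 and 4, at sums of 17583 and 13855 CPM, are the 2 highest libraries for Lrp5, Fzd7 and Sfrp1, while for Sfrp5 knockout replicate 3 lies between them.

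Dkk3 spanned 677 to 854 CPM in the wild type (median 722) and 547 to 745 CPM in the knockout (median 662). Wild-type replicate 1 was the highest library. Knockout replicates 1, 3, 4 and 5 lay below every wild-type library, replicate 3 by less than the rounding of these values, and knockout replicates 2 and 6 lay within the wild-type range. Means were 734 ± 62.1 and 656 ± 79.0 CPM (SD, n = 6 each), and the log2 fold change of -0.16 had an interval of -0.33 to 0.005 and an unadjusted p of 0.0567 in edgeR. Dkk2 averaged 1.44 and 1.39 CPM. Dkk1, the classical Lrp5 and Lrp6 antagonist, was thinly counted, with 2 to 16 reads per library. Dkkl1, a dickkopf-like gene, had means of 0.421 and 0.861 CPM, where knockout replicate 5 at 2.57 CPM stood apart, and without it the log2 fold change dropped from 1.04 to 0.29. Wif1, a secreted Wnt binder, averaged 0.178 and 0.296 CPM with an interval of -0.56 to 2.05.

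The 7 cytoplasmic genes had fold changes no larger than 0.08 in size on the log2 scale. Ctnnb1 spanned 403 to 468 CPM in the wild type and 369 to 460 CPM in the knockout, with means of 427 ± 26.0 and 423 ± 34.3 CPM (SD, n = 6 each). Its log2 fold change was -0.01 with an interval of -0.15 to 0.12. Apc averaged 227 and 240 CPM (interval -0.08 to 0.25), and Axin1, the scaffold of the destruction complex, 56.5 and 54.95 CPM (interval -0.21 to 0.13). Axin2, which beta-catenin itself induces in many tissues, averaged 16.1 and 16.2 CPM, with an interval of -0.24 to 0.25. The dishevelled genes, which link frizzled receptors to the destruction complex, differed by 0.02 for Dvl1, -0.03 for Dvl2 and -0.01 for Dvl3.

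The 4 transcription factors likewise overlapped between genotypes. Lef1 averaged 3.20 ± 0.426 CPM in the wild type and 3.74 ± 0.430 CPM in the knockout (SD, n = 6 each), a log2 fold change of 0.22 with an unadjusted edgeR p of 0.121. Tcf7 averaged 1.38 and 1.29 CPM, Tcf7l1 3.67 and 3.81 CPM, and Tcf7l2 4.32 and 4.33 CPM. The interval of Tcf7l2 was -0.37 to 0.37.

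**Figure D5:**
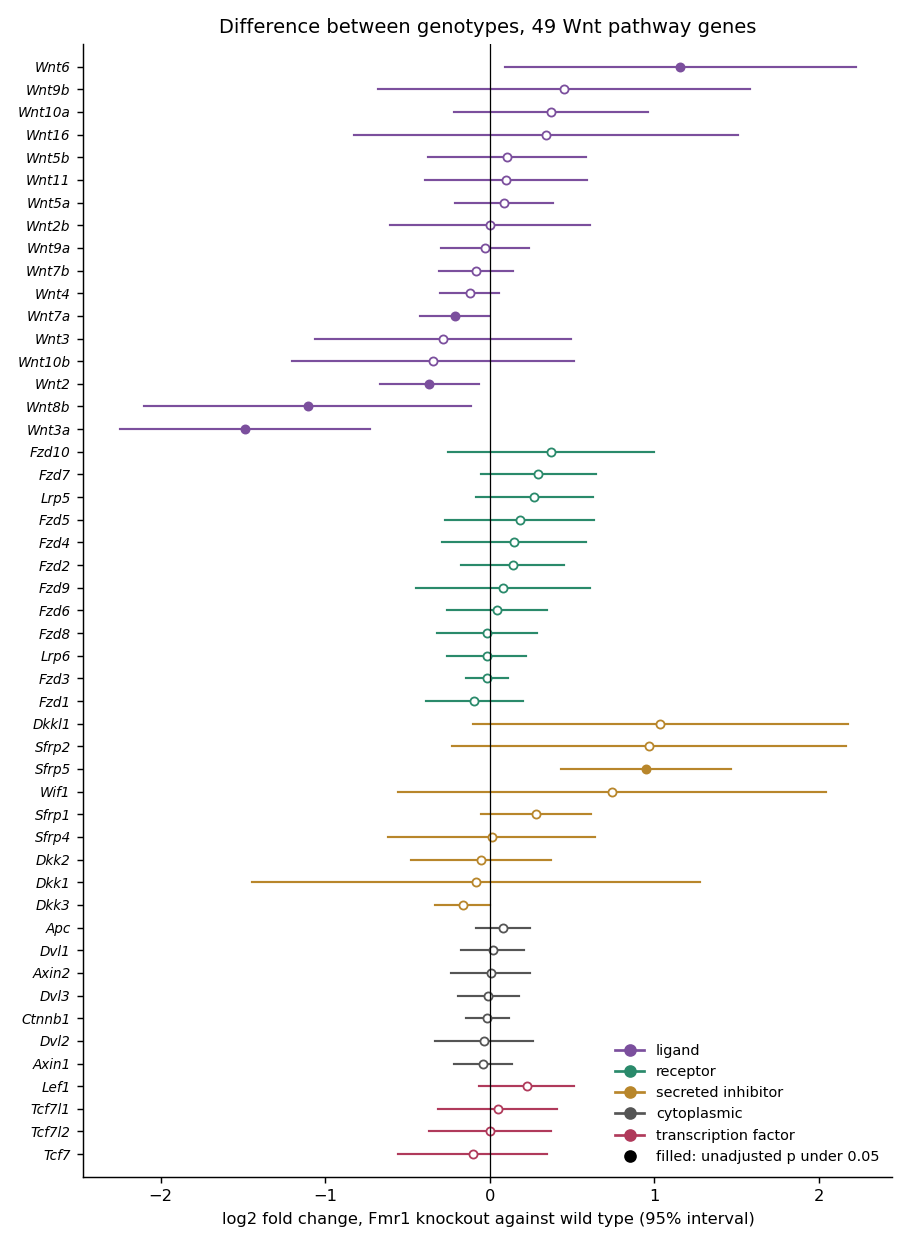
log2 fold changes of Fmr1 KO against wild type for the 49 genes, with 95% intervals from edgeR, grouped and coloured by role, and filled points for an unadjusted p under 0.05. The 6 filled points are 5 ligands and Sfrp5, and the cytoplasmic genes lie within 0.08 of 0.

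A list of 86 other tested genes of the pathway covered secretion, co-receptors, R-spondins, other extracellular modulators, the destruction complex, nuclear cofactors, the planar polarity and calcium branches, and genes used as readouts. None of the 86 passed an adjusted p of 0.05 in edgeR and DESeq2 called 1, while 7 (8.14%) had an unadjusted p under 0.05 in edgeR, close to the 7.96% of all genes. All 7 were lower in the knockout, a direction with 3.67% of all genes at that level, and the median log2 fold change over the list was -0.02, with 34 genes higher and 52 lower. Higher genes made up 39.5% of the list and 51.4% of all genes tested. The 7 genes were Ccnd1, Nfatc2, Bcl9, Pygo1, Tle3, Celsr2 and Tnks.

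Ccnd1, the cyclin D1 gene and a readout of beta-catenin in many cell types, spanned 141 to 178 CPM in the wild type and 102 to 130 CPM in the knockout. All knockout libraries lay below all wild-type ones. The means were 154 ± 12.2 and 116 ± 9.94 CPM (SD, n = 6 each), and the log2 fold change was -0.41 with a standard error of 0.07. edgeR's adjusted p was 0.0536 and DESeq2's 0.000187. The other genes listed only as readouts did not reach an unadjusted p of 0.05 in edgeR. Myc averaged 4.90 and 4.29 CPM, Prox1 18.4 and 14.1 CPM, and Neurod1 29.7 and 25.3 CPM. Sp5, with 0 to 11 reads per library, averaged 0.0364 and 0.0994 CPM. Of these 5 genes, Ccnd1 included, only Sp5 had a higher mean in the knockout. Notum, Lgr5, Apcdd1 and Nkd1, counted under other headings, are used as readouts too, as are Axin2, Lef1 and Tcf7. Among these, Notum, Lgr5, Apcdd1, Axin2 and Lef1 had a higher mean in the knockout, and Nkd1 and Tcf7 a lower one. Prox1 is also a marker of dentate granule cells, whose list of 6 had a median sum of 166 CPM in the wild type and 145 CPM in the knockout. Besides its use as a readout, Ccnd1 responds to many other inputs.

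Of the nuclear cofactors, Bcl9 and Pygo1 code for proteins that act together on beta-catenin. Bcl9 spanned 82.2 to 104 CPM in the wild type and 62.6 to 87.9 CPM in the knockout, and Pygo1 7.27 to 11.8 and 6.62 to 9.11 CPM. Both overlapped between genotypes, with log2 fold changes of -0.27 and -0.37 and edgeR adjusted p-values of 0.402 and 0.415. Tle3, a corepressor of the same complexes, differed by -0.16, Nfatc2 of the calcium branch by -0.34, Celsr2 of planar polarity by -0.14 and Tnks, an enzyme that marks Axin for breakdown, by -0.18.

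The genes that make and export Wnt ligands were well expressed and did not reach that level. Porcn, which adds the lipid, averaged 42.8 and 44.2 CPM, and Wls, which carries ligands to the surface, 32.5 and 37.1 CPM. R-spondins bind Lgr receptors and keep the ubiquitin ligase Znrf3 from removing frizzled from the surface. Rspo2 averaged 19.3 and 16.5 CPM, Rspo3 17.4 and 17.2 CPM, the receptor gene Lgr4 33.7 and 33.3 CPM, and Znrf3 20.4 and 19.5 CPM. Ryk, an alternative Wnt receptor, averaged 45.4 and 47.1 CPM. Of 13 other extracellular modulators, 10 had a higher and 3 a lower mean in the knockout, with a median log2 fold change of 0.09 and none at an unadjusted p under 0.05. Among them, Sostdc1, a secreted antagonist, averaged 29.6 and 36.5 CPM, and Kremen1, a dickkopf receptor, 17.96 and 19.3 CPM.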

How the data were processed

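The authors sequenced poly-A RNA of HA-immunoprecipitated ribosomes (stranded single-end reads of 50 bases), demultiplexed with bcl2fastq 2.17, aligned with TopHat2 2.1.1 and Bowtie2 2.2.8 to mm10 allowing 3 mismatches, counted reads per gene with HTSeq 0.6.1p1 and deposited raw counts, without normalization. Lane membership of the libraries is not given in the sources used here.

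The members and gene lists were chosen with earlier results of these data known. Full statistics were planned for members with an unadjusted p under 0.05 and the leading genes per role, and any member could be named with its level. Fzd2, Fzd4, Fzd7, Lrp5, Sfrp1 and Tcf7l1 were grouped only after the values were seen. The 17823 genes with at least 15 reads in total were fitted together in edgeR 4.0.16 (R 4.3.3, TMM, quasi-likelihood test, no block), with Benjamini-Hochberg adjustment over all of them. The standard error is the log2 fold change divided by the square root of F. Levels per kilobase used GENCODE transcripts matched by Entrez identifier, available for all 49 members and 92.9% of genes. Alternatives were DESeq2 1.42.0, limma 3.58.1, other scalings and filters, robust fitting, a replicate block and each library left out. The edgeR, DESeq2 and limma fits were tested on simulated data. Changes were planted there only in genes above 1 CPM, a level that the means of Wnt3a, Wnt8b and Wnt6 did not reach. Depth limits precision, and counting error is large below 1 CPM.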

Additional observations from a re-analysis of the deposited data

Results flagged for a closer look

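In 98 groups of 6 libraries (49 genes in each genotype), 8 had a highest or lowest library set apart from the nearest other by more of the group's range than Dixon's 95% critical ratio allows, where chance alone gives about 4.9. In the wild type, replicate 1 was high for Dkk3 (854 CPM against 677 to 730 in the others, a gap of 0.700 of the range) and for Wnt2 (22.9 against 12.5 to 16.0 CPM, 0.664). Replicate 4 of the wild type was high for Fzd7 (15.1 against 8.72 to 11.01 CPM, 0.639), and replicate 3 was low for Wif1 (0 against 0.172 to 0.250 CPM, 0.690), on very few reads. In the knockout, replicate 5 was high for Dkkl1 (2.57 against 0.248 to 0.959 CPM, 0.694) and for Dvl1 (58.2 against 41.0 to 46.5 CPM, 0.681). Knockout replicate 1 was high for Fzd10 (2.88 against 0.950 to 1.61 CPM, 0.660), and replicate 4 for Wnt2b (2.94 against 0.766 to 1.55 CPM, 0.641).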

How the results depend on the processing

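The number of members past the threshold, 0 in edgeR, was 2 in DESeq2 with and without its fold change prior, and 0 under every other setting run. Wnt3a passed the threshold in DESeq2 at a log2 fold change of -1.497, and at -0.36 with the prior, and with each library left out it ranged from -1.79 to -1.37. It had too few reads for the filter of 10 reads in every library. The number of members at an unadjusted p under 0.05, 6 in the report, was 3 under that filter (Sfrp5, Wnt2 and Wnt7a), 5 with the replicate number as a block (4 of the 6 and Dkk3), 5 in limma (4 of the 6 and Dkk3), and 3 without knockout replicates 1 and 4 (Wnt3a, Sfrp5 and Dkkl1), a setting chosen after seeing the data. With the block, Wnt6 (p 0.0889) and Wnt8b (p 0.0743) no longer reached it in edgeR. Leaving out single libraries gave 3 (without knockout replicate 4) to 9 (without knockout replicate 2). Of the other pathway genes, 1 (Ccnd1) passed, in place of 0, without scaling, in DESeq2 with and without the prior, with a filter of 1 read in total, with robust fitting and at an adjusted p of 0.1, and 0 to 1 passed with each library left out (1 without knockout replicate 2). For 12 further named genes, 278 of 286 comparisons kept their direction and side of the threshold and 8 gained a call, 2 for Sfrp5 and 6 for Ccnd1. None of the 12 was called in the main edgeR fit, so no call could be lost. Wnt8b had no adjusted p in DESeq2 with or without the prior, and was counted there as not called. A sign change occurred under some setting in 25 of the 49 members, none with an unadjusted p under 0.05. Same-numbered libraries of the genotypes had correlated deviations of -0.08 to 0.09 over all genes and of -0.44 to 0.60 over well-expressed genes, not above 0.1 in every pair, so the numbers were not taken as pairs, and with the replicate block Wnt3a was at -1.59 with an edgeR adjusted p of 0.198. The causes of these shifts were not tested. Ligands and inhibitors under 1 CPM rested on few reads.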
